A study of Homo sapiens with 6 samples.

Results

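The interferon-stimulated effector genes are 51 named human genes whose products act in innate defence against viruses. They were chosen by name, with earlier results of these data known. They fall into 38 antiviral effectors, 6 sensors of nucleic acid, 4 genes of the PARP group and 3 guanylate-binding protein (GBP) genes. All 51 were found among the 56584 gene symbols of the library tables. In 40 of them the gene was the only protein-coding name of its row in every library, and 35 of those 40 averaged at least 0.5 FPKM (Cufflinks fragments scaled to transcript length and to the mapped total of the library) and were tested, among 10715 tested genes in all. The other 16 were 5 genes with a lower mean and 11 genes found with a further protein-coding name in their row in at least 1 library.

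RNA was compared between a pair of immortalized cell lines that the labels give as lymphoma B cells, LY19Y646F and LY19WT. LY19Y646F is labelled as expressing the EZH2-Y646F mutant constitutively under a CMV promoter, and LY19WT as EZH2 wild type. EZH2 is the methyltransferase subunit of Polycomb repressive complex 2, which marks histone H3 at lysine 27. Both lines were untreated and were taken at passages 10 to 15, and each gave 3 poly(A) RNA libraries, called biological replicates without a statement that they came from separate cultures. No interferon or virus is named in the labels, so the levels are those of untreated cells.

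Type I and type III interferons bind receptors that signal through JAK kinases to the transcription factor complex ISGF3. ISGF3 binds the interferon-stimulated response element, a repeat of the core GAAA, in the promoters of its target genes. Interferon gamma acts on a different element, the gamma-activated site. The induced proteins bind viral RNA, degrade it, stop translation, block membrane fusion or sense more foreign nucleic acid, and many cells keep a low level of them without added interferon.

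The response element was looked for in promoter sequences from RefSeq on GRCh38.p14, each with 250 bases before and 50 bases after the start site. The motif was GAAANNGAAA on either strand, with overlapping matches counted as separate matches, and promoters were found for 40 of the 51 members. It was present in 28 of the 40 member promoters (70.0%), against 996 of 27305 promoters in the table (3.65%). The stretches below show it for members that were low in LY19Y646F (IFIT5, IFIT3, OAS3, HERC5, DDX60 and IFIH1) and for members that were not called (ISG15, ISG20 and BST2). They end upstream of the start site, read 5′ to 3′ on the strand of the gene, with the motif or its reverse complement in capitals.
IFIT5 (chr10:89414503-89414552, plus strand): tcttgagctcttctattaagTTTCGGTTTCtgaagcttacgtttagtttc
IFIT3 (chr10:89327855-89327904, plus strand): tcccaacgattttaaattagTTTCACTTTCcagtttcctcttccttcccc
OAS3 (chr12:112938311-112938360, plus strand): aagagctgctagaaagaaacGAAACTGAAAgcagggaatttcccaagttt
HERC5 (chr4:88457025-88457074, plus strand): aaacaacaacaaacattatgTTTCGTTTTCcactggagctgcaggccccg
DDX60 (chr4:168318811-168318860, minus strand): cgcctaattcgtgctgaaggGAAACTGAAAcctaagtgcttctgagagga
IFIH1 (chr2:162318808-162318857, minus strand): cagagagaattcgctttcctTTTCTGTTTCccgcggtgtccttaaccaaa
ISG15 (chr1:1013370-1013419, plus strand): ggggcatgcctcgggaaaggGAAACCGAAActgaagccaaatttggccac
ISG20 (chr15:88638927-88638976, plus strand): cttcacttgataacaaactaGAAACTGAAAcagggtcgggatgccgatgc
BST2 (chr19:17405731-17405780, minus strand): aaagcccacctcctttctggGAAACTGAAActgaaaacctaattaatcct

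By test outcome, the motif was in 16 of 21 promoters of members called lower in LY19Y646F (76.2%) and in 5 of 7 promoters of tested members that were not called (71.4%). It was in 4 of 8 promoters of members in merged rows and in 3 of 4 of members with a low mean, and these shares were not tested against each other. Of the 5958 tested genes with a promoter in the table, 3.22% held it. The share was 5.09% of the 1121 that were called lower (57 promoters) and 2.41% of the 1164 called higher. The 57 include the 16 promoters of called members, which were chosen with earlier results of these data known. These shares are therefore not a contrast apart from the members. The gamma-activated site, written TTCNNNGAA, was in 9 of 40 member promoters (22.5%) and in 7.88% of all promoters. A match is a description of the letters in this window and not a measured binding site.

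Summed FPKM ranged from 804303 to 1018150 over the 6 libraries. The 10 highest rows held 27.5% of the sum in LY19WT replicate 3 and 5.73% to 9.41% in the other libraries. No read totals are at hand, so depth is unknown and precision rests on the spread of 3 libraries a line. EZH2 itself averaged 81.4 FPKM in LY19Y646F and 70.6 FPKM in LY19WT (log2 change 0.20, SE 0.154, adjusted p = 0.383), a level that cannot tell introduced from native transcripts. A value of 0 in these assembled tables can be a failed estimate, and such values are described as listed at 0. With 3 libraries a line, an exact permutation test cannot give a p under 0.10, so single genes were tested in a fit across all tested genes with limma.

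The members were lower in LY19Y646F. Of the 35 tested, 27 were called lower at an adjusted p under 0.05 (limma, Benjamini-Hochberg over 10715 genes) and 0 were called higher, at an unadjusted p under 0.05 also 0. Among all tested genes, 16.5% were called lower and 16.7% higher, so the comparison as a whole was balanced and the members were not. The members were chosen with earlier results of these data known, so this contrast is a description and no test was made over the list. The median log2 change of the 35 was −2.06, with a range of −3.84 to 0.92, beside a median of −0.03 over all tested genes. In 28 of the 35 every LY19Y646F library lay below every LY19WT library, as in 24.2% of all tested genes, and 0 showed the opposite order. All log2 changes are LY19Y646F minus LY19WT on the log2(FPKM + 1) scale, which understates the fold of genes near 0.

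**Figure D1:**
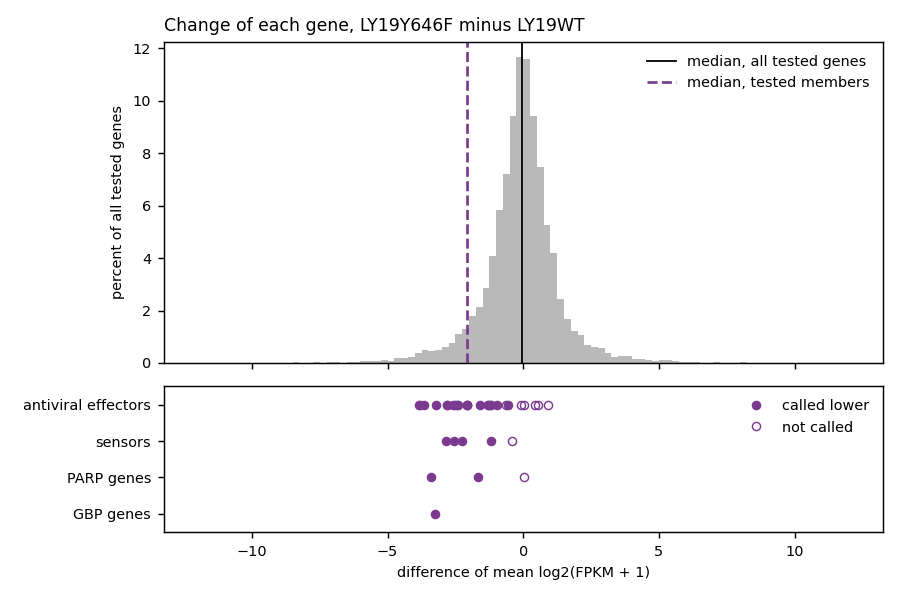
Difference of mean log2(FPKM + 1), LY19Y646F minus LY19WT, for all 10715 tested genes (grey bars, percent of genes, top) and for the 35 tested members by role (points, bottom; filled, called lower; open, not called). The members' median of −2.06 (dashed line) lies left of the median of −0.03 over all tested genes (solid line), and the 27 called members all lie below 0.

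The difference was one of near absence against a moderate level. The median FPKM of the 35 members was 0.581, 0.398 and 0.425 in the LY19Y646F libraries, against 5.33, 7.21 and 6.14 in the LY19WT libraries. Over all tested genes the library medians lay between 6.81 and 8.24 FPKM. Of the 27 called members, 19 averaged under 1 FPKM in LY19Y646F and 1 averaged under 1 FPKM in LY19WT. A member almost absent from LY19Y646F could reach the minimum mean of 0.5 FPKM only through LY19WT. The filter therefore fixes part of this split and of the member medians above. On the log2(FPKM + 1) scale 25 of the 27 differed by at least 2-fold. In bulk RNA, fewer cells that express a gene and less RNA per cell cannot be told apart.

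Cell type markers differed between the lines as well. Of the 5 tested precursor B cell markers, 4 were called lower in LY19Y646F. The summed level of the 6 separable ones was 85.9 to 86.6 FPKM in LY19Y646F, against 651 to 2240 FPKM in LY19WT. Nearly all of the LY19Y646F sum was MME (CD10), the tested marker that was not called, with 84.1, 81.5 and 84.6 FPKM in LY19Y646F against 46.1, 74.3 and 48.3 FPKM in LY19WT (adjusted p = 0.0760). DNTT, the terminal transferase of precursor lymphocytes, had 0.0481, 0.0816 and 0.0814 FPKM in LY19Y646F, against 90.7, 170 and 99.7 FPKM in LY19WT. MS4A1, the mature B cell antigen CD20, had 83.1, 110 and 118 FPKM in LY19Y646F, against 0.0688, 0.0880 and 0.140 FPKM in LY19WT, in a row shared with another coding gene in at least 1 library. All 3 tested plasma cell markers were called lower, with summed levels of 24.1 to 28.0 FPKM in LY19Y646F against 153 to 170 FPKM in LY19WT. The other marker of that list, TNFRSF17, lay in a merged row and had the opposite order, with 7.77, 18.5 and 11.1 FPKM in LY19Y646F against 0.0387, 0 and 0 FPKM in LY19WT; the row was called higher when merged rows were counted (adjusted p = 0.00122). MME and TNFRSF17 were chosen for mention after their values were seen. The part of these marker differences in the member levels was not tested.

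Markers of other cell types were also checked, and the T and NK cell and fibroblast lists summed to at most 2.16 FPKM in any library. The plasmacytoid dendritic cell list summed to 2.97 to 5.83 FPKM in LY19Y646F and 74.6 to 92.6 FPKM in LY19WT, with TCF4, which is not confined to those cells, as nearly all of the sum in LY19WT. In LY19Y646F replicate 2, TCF4 had 3.42 FPKM and IL3RA 2.41 FPKM. The defining gene of the list, CLEC4C, was listed at 0 in all libraries but 1, where it had 0.0222 FPKM. The myeloid list summed to 0.374 to 0.723 FPKM in LY19Y646F and 11.4 to 13.9 FPKM in LY19WT, where LYZ made up nearly all of it. In LY19Y646F no myeloid marker exceeded 0.433 FPKM. CSF1R, of the same list, had 0.129, 0.0521 and 0.0790 FPKM in LY19Y646F against 0.993, 0.748 and 0.397 FPKM in LY19WT, the same order as LYZ. The means of CD14 (0.184 against 0.121 FPKM) and ITGAM (0.154 against 0.0422 FPKM) were higher in LY19Y646F than in LY19WT. S100A8 and S100A9, also of that list, were listed at 0 in all 6 libraries.

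**Figure D2:**
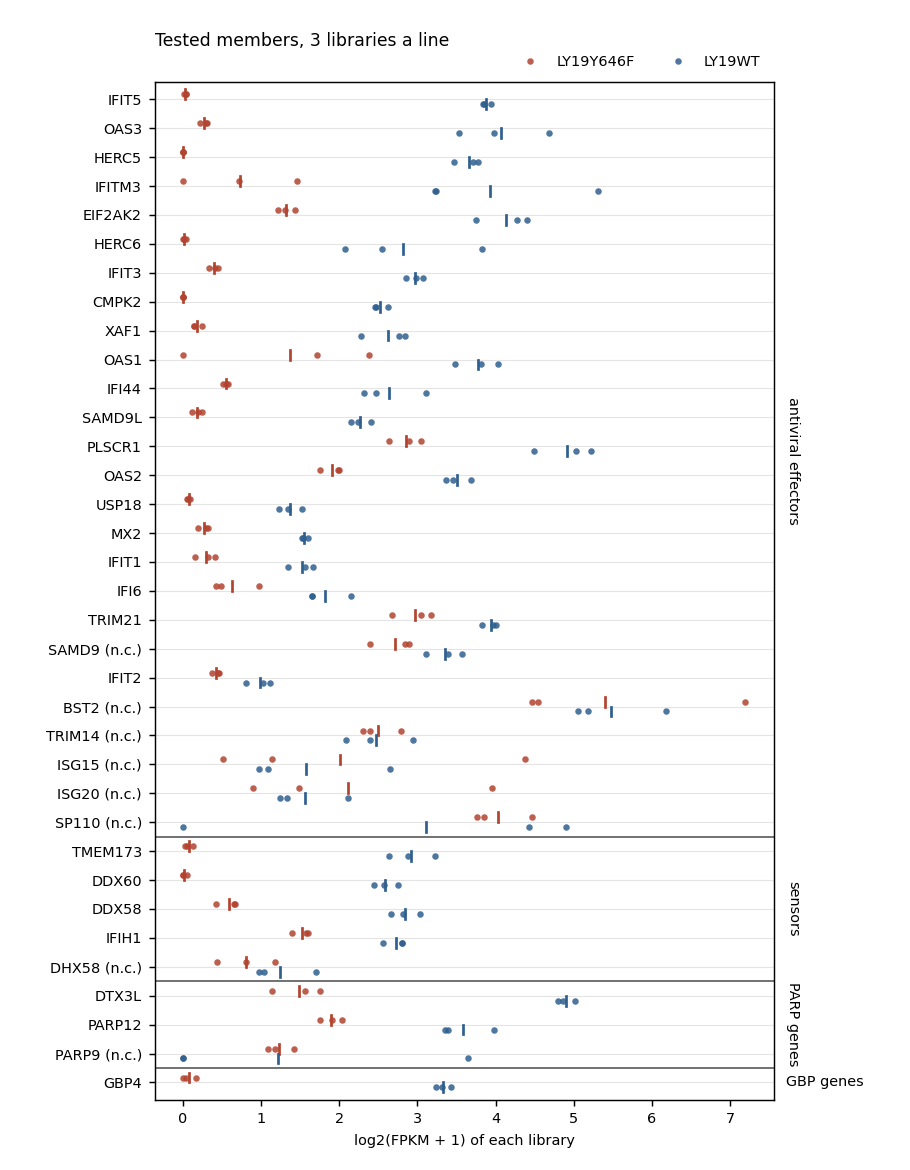
Level of the 35 tested members in each library as log2(FPKM + 1), by role and, within a role, by the size of the difference. Points are libraries, ticks are means of 3, and n.c. marks the 8 members that were not called; in the 27 called members no LY19Y646F point reaches a LY19WT point of the same gene.

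The IFIT genes lie side by side on chromosome 10, with hg19 rows from IFIT2 at chr10:91061712-91069033 to IFIT5 at chr10:91174343-91180758. Their proteins bind viral RNA ends and hold back translation. All 4 were called lower, over a wide range of size. IFIT5 had 0.0260, 0.0302 and 0.0138 FPKM in LY19Y646F, against 13.4, 13.3 and 14.3 FPKM in LY19WT. It was almost absent from all LY19Y646F libraries and even across LY19WT, and its log2 change of −3.84 (SE 0.111, adjusted p = 2.49e-05) was the largest fall among the tested members. IFIT3 had 0.257, 0.369 and 0.328 FPKM in LY19Y646F, against 6.26, 6.88 and 7.39 FPKM in LY19WT. The groups lay far apart, with a log2 change of −2.57 (SE 0.125, adjusted p = 9.31e-05). IFIT1 was low in both lines, with 0.112, 0.245 and 0.333 FPKM in LY19Y646F and 1.54, 2.16 and 1.96 FPKM in LY19WT, and differed by −1.23 (SE 0.154, adjusted p = 0.00278). IFIT2 had 0.290, 0.365 and 0.372 FPKM in LY19Y646F, against 0.757, 1.16 and 1.03 FPKM in LY19WT. The groups did not overlap, but the log2 change of −0.56 (SE 0.140, adjusted p = 0.0312) was the smallest of the called members, and the call was lost with quantile scaling (−0.29, adjusted p = 0.167).

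The oligoadenylate synthetases make the messenger that switches on RNase L, which cuts viral and cellular RNA. Their rows lie together on chromosome 12, OAS1 at chr12:113344582-113369990 and OAS2 at chr12:113416200-113449528, with OAS3 between them. OAS3 had 0.159, 0.242 and 0.231 FPKM in LY19Y646F, against 24.7, 14.8 and 10.6 FPKM in LY19WT, a log2 change of −3.79 (SE 0.309, adjusted p = 0.000561). The LY19WT libraries differed among themselves by more than those of IFIT5, and all were far above LY19Y646F. OAS2 kept a measurable level in both lines, 2.37, 3.01 and 2.96 FPKM in LY19Y646F and 9.97, 9.34 and 11.9 FPKM in LY19WT, with a log2 change of −1.59 (adjusted p = 0.000918). OAS1 had 0, 4.19 and 2.30 FPKM in LY19Y646F, against 15.3, 13.1 and 10.2 FPKM in LY19WT. One LY19Y646F library was listed at 0 and the groups did not overlap; its log2 change was −2.41 (SE 0.637, adjusted p = 0.0368), and leaving out any single LY19WT library ended the call (adjusted p 0.0905 to 0.113). The authors' deposited table puts OAS1 at 7.61 FPKM in LY19Y646F and 20.3 FPKM in LY19WT.

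MX2, a dynamin-like GTPase that blocks nuclear entry of some viruses, had 0.246, 0.144 and 0.223 FPKM in LY19Y646F, against 2.03, 1.91 and 1.87 FPKM in LY19WT. All LY19WT libraries were close together and above LY19Y646F, and the log2 change was −1.29 (adjusted p = 0.000932). MX1, its relative that acts mainly in the cytoplasm, was under the minimum level with 0, 0.0134 and 0 FPKM in LY19Y646F and 0.967, 0.812 and 0.640 FPKM in LY19WT.

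HERC5 is the main ligase that attaches the ubiquitin-like protein ISG15 to other proteins, and USP18 removes ISG15 and blocks the interferon receptor. HERC5, at chr4:89378268-89427314, had 0.00514, 0 and 0 FPKM in LY19Y646F, against 10.1, 12.7 and 12.1 FPKM in LY19WT. It was listed at or near 0 throughout LY19Y646F and at a steady level in LY19WT, with a log2 change of −3.65 (SE 0.136, adjusted p = 4.21e-05). Its neighbour HERC6 had 0.00814, 0.0326 and 0 FPKM in LY19Y646F, against 3.21, 13.2 and 4.85 FPKM in LY19WT. Replicate 2 stood above the other LY19WT libraries, and the log2 change was −2.80 (SE 0.466, adjusted p = 0.00765). USP18 had 0.0688, 0.0503 and 0.0379 FPKM in LY19Y646F, against 1.88, 1.35 and 1.55 FPKM in LY19WT (log2 change −1.30, adjusted p = 0.00148). Both the ligase and the protease were therefore low in LY19Y646F, while ISG15 itself was not called, as given further on.

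EIF2AK2 encodes PKR, the kinase that stops translation when it binds double-stranded RNA. It had 1.32, 1.46 and 1.70 FPKM in LY19Y646F, against 12.4, 18.3 and 20.1 FPKM in LY19WT, and its log2 change was −2.82 (SE 0.207, adjusted p = 0.000386). The groups were well separated, although LY19Y646F kept a measurable level. CMPK2, a nucleotide kinase of mitochondria, was listed at 0 in all 3 LY19Y646F libraries, against 4.55, 5.17 and 4.48 FPKM in LY19WT (adjusted p = 9.12e-05). No fold is given against a line listed at 0; the authors' deposited table also puts it at 0 in LY19Y646F and at 5.20 FPKM in LY19WT.

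SAMD9 and its paralog SAMD9L restrict poxviruses, and 1 of them was called. SAMD9L had 0.0858, 0.142 and 0.187 FPKM in LY19Y646F, against 3.45, 3.73 and 4.30 FPKM in LY19WT, with a log2 change of −2.08 (SE 0.133, adjusted p = 0.000231). SAMD9 had 4.24, 6.45 and 6.18 FPKM in LY19Y646F, against 7.64, 9.52 and 10.8 FPKM in LY19WT. Its groups did not overlap, but its log2 change of −0.65 (SE 0.205, adjusted p = 0.0640) did not pass the threshold. The difference between the paralogs was not itself tested.

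XAF1, an antagonist of the apoptosis inhibitor XIAP, had 0.104, 0.106 and 0.181 FPKM in LY19Y646F, against 3.84, 5.82 and 6.14 FPKM in LY19WT. The log2 change was −2.45 (SE 0.191, adjusted p = 0.000483), and no library of one line came near the other. IFI44, an interferon-induced protein that limits virus growth, had 0.498, 0.471 and 0.428 FPKM in LY19Y646F, against 3.98, 7.66 and 4.54 FPKM in LY19WT. It was nearly constant in LY19Y646F and more variable in LY19WT, with a log2 change of −2.08 (adjusted p = 0.00205). IFI6, a small membrane protein of the endoplasmic reticulum and mitochondria, had 0.964, 0.398 and 0.338 FPKM in LY19Y646F, against 3.45, 2.14 and 2.14 FPKM in LY19WT. Its log2 change was −1.19 (adjusted p = 0.0144), and replicate 1 was the highest library of both lines; it was no longer called when LY19Y646F replicate 2 (adjusted p = 0.0554) or 3 (adjusted p = 0.0503) was left out.

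TRIM21, the cytosolic antibody receptor that sends antibody-coated virus to the proteasome, was among the called members with the higher levels in LY19Y646F. It had 5.37, 7.23 and 8.06 FPKM in LY19Y646F, against 15.1, 14.7 and 13.2 FPKM in LY19WT. The log2 change was −0.97 (SE 0.168, adjusted p = 0.00868), without overlap. PLSCR1, a phospholipid scramblase of the plasma membrane with antiviral activity, also kept a level in LY19Y646F, with 7.23, 5.22 and 6.41 FPKM there and 31.5, 36.4 and 21.4 FPKM in LY19WT. Its means were 6.29 ± 1.01 FPKM in LY19Y646F and 29.8 ± 7.64 FPKM in LY19WT (SD, n = 3 each), and its log2 change was −2.06 (adjusted p = 0.00197).

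The IFITM proteins sit in membranes and hinder the fusion of enveloped viruses. IFITM3 had 1.76, 0 and 0.645 FPKM in LY19Y646F, against 38.8, 8.36 and 8.47 FPKM in LY19WT. In LY19Y646F replicates 2 and 3 its row also names RP11-326C3.14, which is not protein-coding. The 95% Cufflinks interval of LY19Y646F replicate 3 ran from 0 to 203 FPKM, past every LY19WT value. Replicate 1 was the highest library in both lines and the listed values of the groups did not overlap. The log2 change was −3.20 (limma, SE 0.711, adjusted p = 0.0208). Leaving out LY19Y646F replicate 2 (adjusted p = 0.0735) or 3 (adjusted p = 0.0711) ended the call. IFITM1 and IFITM2 share a single row in all libraries, with 17.8, 7.34 and 7.70 FPKM in LY19Y646F, against 268, 147 and 140 FPKM in LY19WT. The IFITM sequences were not compared here and reads may be split between related genes. The value of each gene is therefore uncertain, while the direction was the same for both rows.

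The 8 tested members that were not called were the antiviral effectors BST2, ISG15, ISG20, SAMD9, SP110 and TRIM14, the sensor DHX58 and PARP9. Those other than BST2, SAMD9 and SP110 averaged under 5 FPKM and are described because of what their values showed. BST2, which tethers budding virus to the cell, had 145, 21.0 and 22.3 FPKM in LY19Y646F, against 71.4, 35.2 and 32.3 FPKM in LY19WT. Replicate 1 was the highest library in both lines, the groups overlapped, and the log2 change was −0.07 (SE 0.840, adjusted p = 0.962). ISG15, the ubiquitin-like modifier, had 19.8, 1.20 and 0.425 FPKM in LY19Y646F, against 5.28, 1.13 and 0.966 FPKM in LY19WT (log2 change 0.44, adjusted p = 0.805). ISG20, an exonuclease of viral RNA, had 14.5, 1.80 and 0.866 FPKM in LY19Y646F, against 3.33, 1.53 and 1.37 FPKM in LY19WT (log2 change 0.55, adjusted p = 0.661). In both genes a single LY19Y646F library stood above all the rest and the order of the lines differed between replicates. TRIM14, an adaptor of antiviral signalling, averaged 4.71 ± 1.08 FPKM in LY19Y646F and 4.71 ± 1.76 FPKM in LY19WT (SD, n = 3 each).

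Replicate 1 was slightly high for short transcripts in both lines, and several members are short. Over all tested genes whose longest coding transcript is under 1000 bases (n = 237), replicate 1 exceeded the mean of replicates 2 and 3 by a median of 0.30 in LY19Y646F and 0.27 in LY19WT, on the log2(FPKM + 1) scale. In the 2706 genes from 1000 up to 3000 bases the medians were 0 in LY19Y646F and 0.03 in LY19WT. In the 4341 genes of 3000 bases and over the medians were −0.15 in LY19Y646F and −0.10 in LY19WT. Of the members, 3 (ISG15, BST2 and IFITM3) were at least 2-fold higher in replicate 1 than in the other libraries in both lines. For ISG15 (787 bases) the excess was 3.52 in LY19Y646F and 1.62 in LY19WT. For BST2 (1019 bases) it was 2.69 in LY19Y646F and 1.06 in LY19WT, and for ISG20 (1856 bases) 2.73 in LY19Y646F and 0.82 in LY19WT. BST2 and ISG20 lie in the middle length class, and all these excesses are above the median of every class. The part of transcript length in them was not tested. Without both replicate 1 libraries, a choice made after seeing the data, 29 members were called lower. BST2 was then among them (log2 change −0.62, adjusted p = 0.0157), and so was SAMD9 (−0.61, adjusted p = 0.0286), while ISG15 (−0.21, adjusted p = 0.572) and ISG20 (−0.10, adjusted p = 0.789) were not called.

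**Figure D3:**
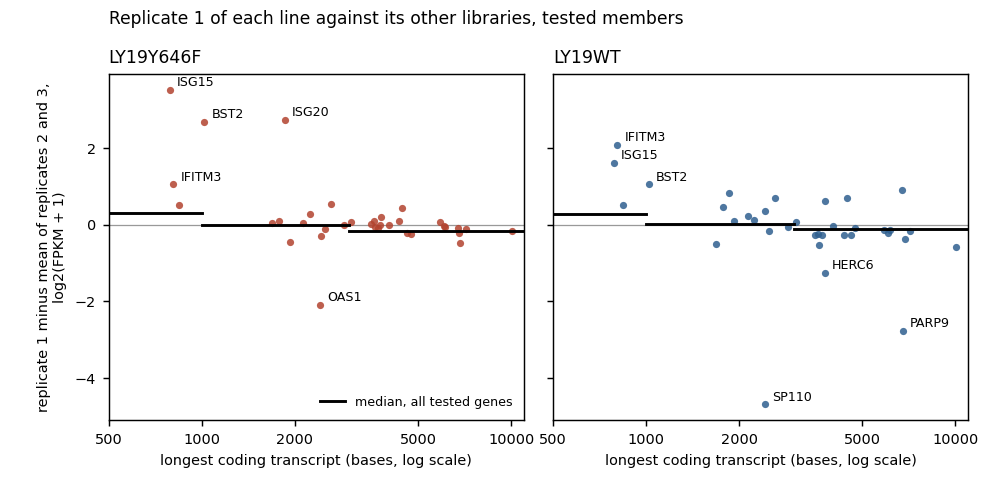
Replicate 1 minus the mean of replicates 2 and 3 of the same line, in log2(FPKM + 1), against the length of the longest coding transcript of each tested member (points), for LY19Y646F (left) and LY19WT (right). Black lines are medians over all tested genes under 1000 bases, from 1000 up to 3000 bases and of 3000 bases and over; ISG15, BST2 and IFITM3 lie at 1 or more in both lines, and PARP9 and SP110 lie far below 0 in LY19WT, where they are listed at 0 in replicate 1.

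SP110, a nuclear body protein, had 13.4, 12.5 and 21.1 FPKM in LY19Y646F, against 0, 20.6 and 28.8 FPKM in LY19WT. The library listed at 0 decides its sign: the log2 change was 0.92 (SE 1.37, adjusted p = 0.647) with it and −0.64 (adjusted p = 0.199) without it. The authors' deposited table has 19.6 FPKM in LY19Y646F and 28.6 FPKM in LY19WT.

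The sensors recognise viral nucleic acid and start the production of interferon. Of the 6, 5 were tested and 4 were called lower. TMEM173 encodes STING, the adaptor that relays the cyclic dinucleotide made by the DNA sensor cGAS. It had 0.0952, 0.0409 and 0.0229 FPKM in LY19Y646F, against 8.38, 6.34 and 5.19 FPKM in LY19WT, and its log2 change of −2.84 (SE 0.189, adjusted p = 0.000269) was the largest of the sensors. DDX58 encodes RIG-I, which detects short and triphosphorylated RNA. DDX58 had 0.581, 0.348 and 0.592 FPKM in LY19Y646F, against 5.33, 7.21 and 6.06 FPKM in LY19WT, a log2 change of −2.25 (SE 0.160, adjusted p = 0.000341). IFIH1 encodes MDA5, which detects long double-stranded RNA, and had 2.02, 1.64 and 1.99 FPKM in LY19Y646F, against 4.92, 5.99 and 5.98 FPKM in LY19WT. Its log2 change was −1.20 (SE 0.138, adjusted p = 0.00202), the smallest of the 4, and its groups did not overlap. DDX60, a helicase linked to RIG-I signalling, had 0, 0.00560 and 0.0332 FPKM in LY19Y646F, against 4.42, 4.96 and 5.75 FPKM in LY19WT (log2 change −2.57, adjusted p = 0.000123). DHX58, which encodes the regulator LGP2, was low in both lines and its groups overlapped, with 1.25, 0.757 and 0.350 FPKM in LY19Y646F and 2.26, 0.957 and 1.06 FPKM in LY19WT (adjusted p = 0.332). IFI16, a nuclear DNA sensor in a merged row, was high in both lines, with 93.0, 128 and 113 FPKM in LY19Y646F and 202, 203 and 223 FPKM in LY19WT.

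The PARP group holds ADP-ribosyltransferases induced by interferon and DTX3L, a ubiquitin ligase that works as a complex with PARP9. DTX3L, at chr3:122283085-122294050, had 1.95, 2.37 and 1.21 FPKM in LY19Y646F, against 26.9, 31.5 and 28.1 FPKM in LY19WT. The log2 change was −3.41 (SE 0.192, adjusted p = 0.000145), the largest among the tested genes of the group. PARP12, which acts on viral RNA in the cytoplasm, had 3.10, 2.38 and 2.75 FPKM in LY19Y646F, against 14.8, 9.49 and 9.25 FPKM in LY19WT (log2 change −1.68, adjusted p = 0.00298). The PARP9 row, at chr3:122246771-122283424, had 1.12, 1.69 and 1.26 FPKM in LY19Y646F, against 0, 0 and 11.6 FPKM in LY19WT. It is listed at 0 in the first and the second LY19WT library, so no direction can be drawn from it (log2 change 0.01, SE 1.06, adjusted p = 0.995). The authors' deposited table has PARP9 at 1.85 FPKM in LY19Y646F and 13.7 FPKM in LY19WT. PARP14, the largest of these enzymes, had 0.0433, 0.0789 and 0.0678 FPKM in LY19Y646F, against 26.0, 51.5 and 30.4 FPKM in LY19WT. Its row also names PARP15 in LY19WT replicate 2 and no other coding gene in the other libraries.

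The guanylate-binding proteins are large GTPases that attack the compartments of intracellular pathogens. GBP4 had 0.0301, 0.128 and 0.00304 FPKM in LY19Y646F, against 8.42, 8.96 and 9.73 FPKM in LY19WT. All LY19Y646F libraries were close to 0, and the log2 change was −3.25 (SE 0.127, adjusted p = 4.76e-05). GBP1 had 0.0937, 0.114 and 0.136 FPKM in LY19Y646F, against 10.7, 11.1 and 13.0 FPKM in LY19WT, in rows that also name GBP2 and GBP7 in LY19WT replicates 1 and 3. GBP2 always shared its row with GBP7, and the row had 0.151, 0.346 and 0.143 FPKM in LY19Y646F, against 10.7, 2.51 and 13.0 FPKM in LY19WT. The 10.7 and 13.0 FPKM of LY19WT replicates 1 and 3 are the GBP1 values above, from a row that names all of GBP1, GBP2 and GBP7. In LY19WT only the 2.51 FPKM of replicate 2 comes from a row without GBP1.

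Counting a merged row for every gene it names brought the 11 merged members into a second fit. In it 17320 genes were tested, of which 13.0% were called lower and 13.2% higher. Of the 46 members then tested, 33 were called lower and 0 higher (limma; 0 also at an unadjusted p under 0.05). Among the 11 merged members 8 were called lower. IFITM1 and IFITM2 are a single row counted for each gene, and GBP1 and GBP2 share their row in LY19WT replicates 1 and 3. The counts are therefore not counts of separate rows, and the sizes given for GBP1 and GBP2 are uncertain. The row changes were −5.06 for PARP14, −4.00 for IFITM1 and IFITM2, −3.50 for GBP1, −2.78 for GBP2, −1.87 for SP100, −0.91 for IFI16 and −0.54 for ADAR, with adjusted p from 0.000126 to 0.0215. SP100, a nuclear body protein that restricts DNA viruses, shared its row with SP140 and SP140L in LY19WT replicates 1 and 2, so its size is uncertain. ADAR, the adenosine deaminase that marks cellular double-stranded RNA as self, had 80.7, 94.3 and 92.5 FPKM in LY19Y646F, against 128, 129 and 132 FPKM in LY19WT. It was abundant in both lines and the groups did not overlap. TRIM22, a ubiquitin ligase, had 20.4, 29.4 and 23.2 FPKM in LY19Y646F, against 33.9, 41.7 and 49.2 FPKM in LY19WT, and missed the threshold (adjusted p = 0.0528). IFI27 (adjusted p = 0.513) and IFI35 (adjusted p = 0.895) were not called; the IFI35 row of LY19Y646F replicate 1, with 3527 FPKM, also names RPL27, PSME3 and other genes.

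**Figure D4:**
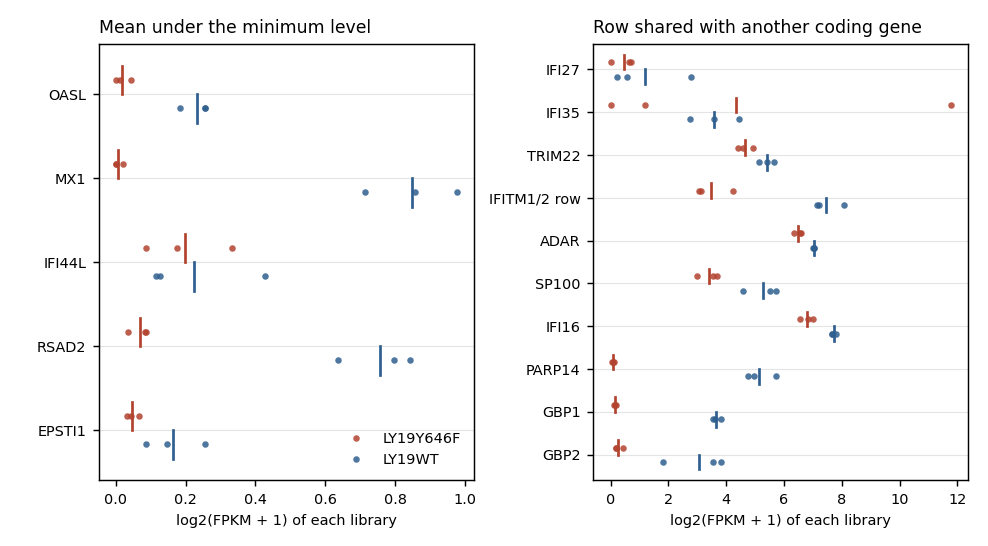
Level in each library, as log2(FPKM + 1), of the 5 members with a mean under 0.5 FPKM (left) and of the 11 members whose row names another protein-coding gene in at least 1 library (right; IFITM1 and IFITM2 share 1 row). Points are libraries and ticks are means of 3. MX1 and RSAD2 lie near 0 in LY19Y646F and between 0.554 and 0.967 FPKM in LY19WT. The PARP14, GBP1 and GBP2 rows separate the lines without overlap, and in LY19WT replicates 1 and 3 GBP1 and GBP2 are the same row.

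The 5 members under the minimum level were MX1, OASL, IFI44L, RSAD2 and EPSTI1. RSAD2 encodes viperin, which makes a nucleotide that ends viral RNA chains, and had 0.0619, 0.0248 and 0.0597 FPKM in LY19Y646F, against 0.736, 0.554 and 0.792 FPKM in LY19WT. OASL, an OAS relative without synthetase activity, did not exceed 0.195 FPKM in any library. Several of the genes that respond most strongly to interferon were therefore under 1 FPKM in both lines, among them MX1, RSAD2 and IFI44L.

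The authors' deposited table, which holds mean FPKM per line and no replicate error, lists 42 of the 51 members under a single gene name. Rows naming several genes were not searched there for the other members. On the log2(FPKM + 1) scale 29 of these were at least 2-fold lower in LY19Y646F, against 11.7% of its 13674 genes. There, 38 of the 42 were lower by any amount, and the 4 that were higher were ISG15, ISG20, TRIM14 and IFI27. The median log2 change was −1.92 over the 42, beside −0.004 over all genes of that table. The table was made from the same libraries, so it is a second way of processing them and not a second experiment. All 26 called members among the 42 were lower there too.

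Other genes of the pathway were read from lists drawn from general knowledge, with earlier results of these data known, and they did not move as one. Of 7 tested genes for receptors and signal transduction, 1 was called lower and 2 higher, with a median log2 change of −0.16. Among all tested genes 16.5% were called lower and 16.7% higher, and with 7 genes the counts do not set this list apart. IFNGR1, the ligand-binding chain of the interferon gamma receptor, had 14.2, 16.1 and 17.9 FPKM in LY19Y646F, against 80.9, 76.3 and 79.6 FPKM in LY19WT (log2 change −2.23, adjusted p = 9.84e-05). IFNGR2, its signalling partner, had 27.5, 48.4 and 36.3 FPKM in LY19Y646F and was listed at 0 in all LY19WT libraries (adjusted p = 6.00e-05). The authors' deposited table has IFNGR2 at 35.0 FPKM in LY19Y646F and 2.19 FPKM in LY19WT. The other call was IFNLR1, the receptor chain for type III interferon, with 11.6, 7.43 and 9.04 FPKM in LY19Y646F against 3.90, 3.98 and 3.55 FPKM in LY19WT (log2 change 1.09, adjusted p = 0.00737).

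Neither chain of the type I interferon receptor was called lower in LY19Y646F. IFNAR1 had 20.8, 26.0 and 29.8 FPKM in LY19Y646F, against 15.8, 16.4 and 0 FPKM in LY19WT, where 1 library was listed at 0 (adjusted p = 0.269). Apart from that library, the LY19Y646F values lay above the LY19WT values. The row that names IFNAR2 and IL10RB had 42.0, 53.7 and 50.8 FPKM in LY19Y646F, against 13.1, 17.3 and 17.6 FPKM in LY19WT. It was called higher when merged rows were counted (log2 change 1.55, SE 0.171, adjusted p = 0.00261), as a value of the row and not of either gene. STAT2, IRF9 and IRF7 were in merged rows too. The authors' deposited table has STAT2 at 16.3 FPKM in LY19Y646F and 14.0 FPKM in LY19WT, and IRF7 at 0.986 FPKM in LY19Y646F and 1.85 FPKM in LY19WT.

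The interferon regulatory factors, which bind elements like those printed above, split in direction. IRF1, an activator, had 4.62, 3.67 and 3.03 FPKM in LY19Y646F, against 32.1, 24.0 and 29.8 FPKM in LY19WT (log2 change −2.64, adjusted p = 0.000320). IRF2, which competes with IRF1, had 6.26, 11.3 and 11.7 FPKM in LY19Y646F, against 21.1, 34.4 and 35.2 FPKM in LY19WT (log2 change −1.55, adjusted p = 0.0155). IRF8, a factor of B cells and myeloid cells, went the other way, with 131, 207 and 249 FPKM in LY19Y646F against 0.250, 0.251 and 0.201 FPKM in LY19WT (log2 change 7.27, adjusted p = 3.54e-05).

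Genes that act before or against interferon were read beside the 16.5% of all tested genes called lower and the 16.7% called higher. Of 7 tested genes for the induction of interferon, 3 were called lower and 0 higher (limma; 1 was higher at an unadjusted p under 0.05). TLR3, the endosomal receptor for double-stranded RNA, had 0.0561, 0.0900 and 0.00310 FPKM in LY19Y646F, against 4.81, 5.68 and 5.63 FPKM in LY19WT (log2 change −2.60, adjusted p = 9.59e-05). The other calls were TRIM25, the ligase that activates RIG-I (−0.58, adjusted p = 0.00539), and the adaptor MYD88 (−0.41, adjusted p = 0.0188). IFNB1, IFNA1 and IFNG were listed at 0 in all 6 libraries. Of 9 tested brakes on interferon signalling, 1 was called lower and 1 higher. SOCS2, a cytokine-induced inhibitor, had 0.0658, 0.0442 and 0.0332 FPKM in LY19Y646F, against 81.0, 192 and 185 FPKM in LY19WT (log2 change −7.09, adjusted p = 0.000103). PTPN6, the phosphatase SHP-1, had 23.1, 11.1 and 10.0 FPKM in LY19Y646F, against 3.35, 3.44 and 2.25 FPKM in LY19WT (log2 change 1.89, adjusted p = 0.0107).

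Further interferon-stimulated genes that are not among the 51 members were more often called lower than higher. Of 28 tested, 15 were called lower and 3 higher, with a median log2 change of −1.14. Among all tested genes 16.5% were called lower and 16.7% higher. The 3 called higher were PNPT1 (1.06), TRANK1 (0.76) and TRIM38 (0.65). With merged rows counted, 19 of 34 were called lower and 4 higher. The added higher call was the row of IFI30, with 337, 123 and 113 FPKM in LY19Y646F against 1.38, 0.925 and 0.708 FPKM in LY19WT. These 4 were named after their values were seen. NMI, a partner of STAT proteins, had 0.418, 0.509 and 0.502 FPKM in LY19Y646F, against 52.5, 60.9 and 76.5 FPKM in LY19WT (log2 change −5.43, adjusted p = 2.71e-05). UBE2L6, the conjugating enzyme of the ISG15 pathway, had 2.68, 2.68 and 2.42 FPKM in LY19Y646F, against 84.4, 46.0 and 42.5 FPKM in LY19WT (log2 change −3.96, adjusted p = 0.000346). RTP4 (−1.95, adjusted p = 0.000269) and TNFSF10, the death ligand TRAIL (−1.88, adjusted p = 0.000352), were also called lower. Of 6 tested class I presentation genes 4 were called lower and 0 higher (limma, 0 also at an unadjusted p under 0.05), beside the same 16.5% and 16.7% of all tested genes. They were NLRC5, the class I transactivator (−2.84, adjusted p = 0.000596), the proteasome activators PSME1 (−2.08, adjusted p = 0.00765) and PSME2 (−1.26, adjusted p = 0.00593), and the class I light chain gene B2M (−0.64, adjusted p = 0.00180).

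**Figure D5:**
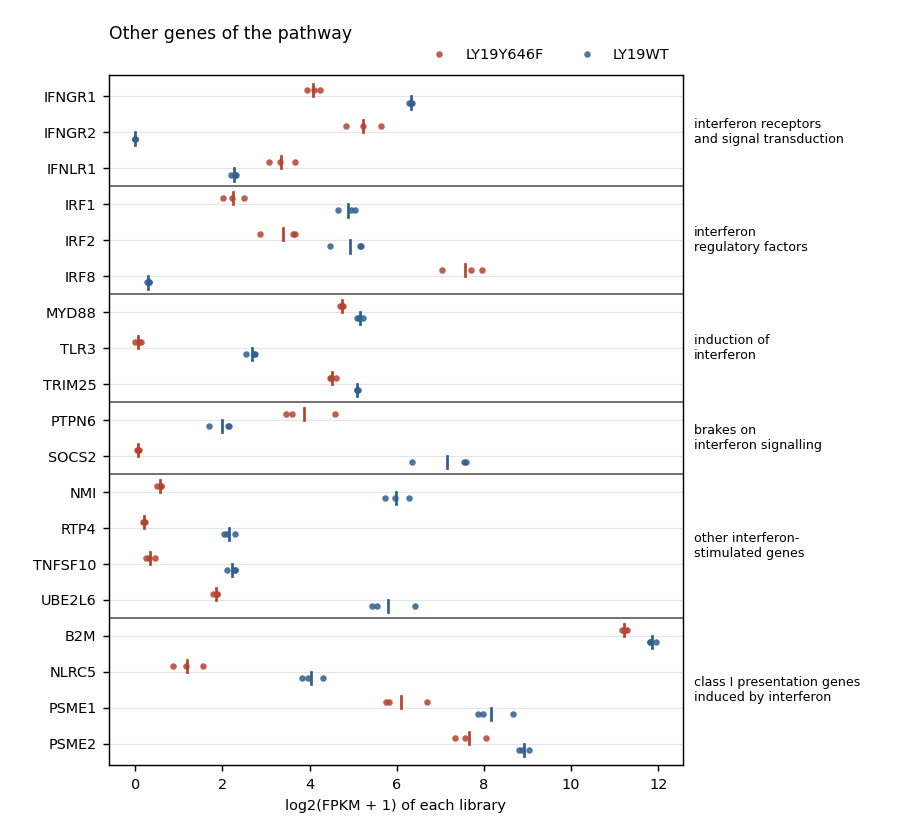
Level in each library, as log2(FPKM + 1), of tested pathway genes outside the members: up to 4 called genes a list with the smallest adjusted p. Points are libraries and ticks are means of 3; IRF8, IFNGR2, IFNLR1 and PTPN6 are higher in LY19Y646F, and the other genes shown are lower in LY19Y646F.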

How the data were processed

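Polyadenylated RNA was made into stranded single-end libraries, per the labels' protocols. Reads were aligned with STAR 2.5.3a and quantified on hg19 with Cufflinks 2.2.1 and Cuffdiff 2.2.1, per the submitters' processing notes. The authors deposited FPKM per gene for each library, per the file headers, on loci assembled in that library, so a gene can sit in a merged row in 1 library and alone in another. The authors' deposited table gives mean FPKM and a log2 fold change per gene, without p-values.

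Rows were joined by symbol. A gene was separable if it was the only protein-coding name of its row in every library, with gene types from GENCODE. Genes averaging 0.5 FPKM or more over all libraries were log-transformed, as log2(FPKM + 1), and compared by limma 3.58.1 under R 4.3.3 (linear fit, eBayes with trend, two-sided, Benjamini-Hochberg over all tested genes, threshold 0.05); the fit was tested on simulated data. Python 3.11.15 was used for joins and plots. The p-values measure the spread between 3 libraries a line. Values are printed for every called member and for other tested members with a mean of at least 5 FPKM, and from each pathway list for up to 4 called genes with the smallest adjusted p. The members and lists were chosen with earlier results of these data known. Alternatives changed the pseudocount, filter, scaling, row rule, weights, replicate block and the libraries used. Protein sequences were not used here. A gene the rule names is not reported here.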

Additional observations from a re-analysis of the deposited data

How the results depend on the processing

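Of the 27 called members, 23 stayed called lower in every limma setting that tests them; IFI6, IFIT2, IFITM3 and OAS1 did not. The count of members called lower was 24 to 27 when 1 library was left out, 26 with the replicate block and 33 with merged rows counted. With the block IFIT2 and OAS1 lost their calls and SAMD9 gained one. Each library correlated best with the library of its own number (r of deviations across genes 0.264, 0.0991 and 0.133), a hint from the data and not from the design. Members called higher were 0 to 1 when 1 library was left out; the 1 was PARP9 without LY19WT replicate 3 (log2 change 1.23, adjusted p = 0.00706), which leaves LY19WT at 0. The median log2 change of −2.06 was −3.22 with a pseudocount of 0.1, −0.96 with 5, −1.44 with no filter, −2.33 with a filter at 2 FPKM, −1.68 for genes alone in their row, −1.81 with quantile scaling, −1.64 with library weights, −2.06 to −1.74 without single libraries and −1.60 without both replicate 1 libraries.

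Signs turned only in members that were not called: BST2 (−0.97 to 0.40 without single libraries, 0.28 and 0.36 among them), ISG15 (−0.045 with library weights, −0.75 to 1.18 without single libraries, −0.21 without both replicate 1 libraries), ISG20 (−0.37 to 1.16 and −0.098 in these last settings), PARP9 (−0.23 with a pseudocount of 5, −0.010 with upper quartile scaling, −0.60 to 1.23 without single libraries, −0.52 without both replicate 1 libraries, −2.37 in the authors' table), SP110 (−0.29 with weights, −0.64 to 1.81 without single libraries, −0.55 without both, −0.53 in the authors' table) and TRIM14 (−0.011 with upper quartile scaling, −0.17 to 0.26 without single libraries). The cause was not tested beyond the listed zeros.

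Library weights gave 2838 genes lower and 2935 higher, 2 receptor genes lower, 3 brakes higher and 2 lower, 1 induction gene higher and 5 other interferon-stimulated genes higher. Brakes called lower were also 2 with the replicate block and without both replicate 1 libraries, settings that also gave 1 induction gene higher, as did quantile scaling and no filter; other interferon-stimulated genes called higher were 6 with no filter and 5 without both. With merged rows, 3 GBP genes and 7 class I genes were lower, and 4 receptor genes and 2 regulatory factors higher, counted by gene although some share a row. Regulatory factors called lower were 1 to 3 without single libraries. With a motif gap of 1 to 3 bases, 82.5% of member promoters and 8.84% of all promoters held it.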
